A study of Mus musculus with 3 samples.

Results

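The genes described here are 10 transcription factor genes tied to endothelial identity, Erg, Fli1, Ets1, Ets2, Elk3, Gata2, Tal1, Meox2, Tcf15 and Nr2f2. They were taken by symbol and not by a limit on a measured value, but earlier results of these data were known when they were chosen. Each was found among the 41605 gene rows of the count matrices. The data were single-cell RNA counts of endothelial cells sorted from the gastrocnemius muscle of C57BL/6N mice by their surface CD31, with no CD45 and no uptake of SYTOX blue, a dye that enters dead cells. There were 3 libraries, 1 in each group. The sedentary group was housed singly in cages with no wheel, and the running group was housed singly and ran voluntarily on a wheel for 14 days. The third group, called untreated here, is labelled only as having had no treatment, and its housing is not given. The labels give no genetic change for any group, no age, and no number of animals in a library.

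ETS proteins bind DNA at sites built around the letters GGAA, and many enhancers of endothelial genes carry such sites. ERG and FLI1 are the ETS members best known for keeping mature endothelium in its state, while GATA2 and TAL1 act with them in endothelium and in blood progenitors. MEOX2 and TCF15 bind DNA as a pair and are known in the capillary endothelium of heart and skeletal muscle, where they drive fatty acid uptake genes. NR2F2, also called COUP-TFII, is a nuclear receptor that favours venous over arterial identity and is also needed in lymphatic endothelium.

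The sequences just upstream of the genes come from RefSeq (build GRCm38.p6), whose table held 7 of the 10 genes. Nr2f2 and Meox2 are shown because Nr2f2 differed most between vessel classes and Meox2 had the highest running to sedentary ratio in capillary-like cells. Each window is the 250 bases before the annotated start, 5' to 3', with GGAA and its reverse complement TTCC in capitals.
Nr2f2, chr7:70366747-70366996, minus strand: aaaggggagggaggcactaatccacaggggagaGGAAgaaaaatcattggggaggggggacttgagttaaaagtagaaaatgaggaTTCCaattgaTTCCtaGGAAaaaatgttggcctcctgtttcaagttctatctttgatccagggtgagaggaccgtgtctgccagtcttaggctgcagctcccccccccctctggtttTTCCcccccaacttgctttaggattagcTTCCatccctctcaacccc
Meox2, chr12:37108290-37108539, plus strand: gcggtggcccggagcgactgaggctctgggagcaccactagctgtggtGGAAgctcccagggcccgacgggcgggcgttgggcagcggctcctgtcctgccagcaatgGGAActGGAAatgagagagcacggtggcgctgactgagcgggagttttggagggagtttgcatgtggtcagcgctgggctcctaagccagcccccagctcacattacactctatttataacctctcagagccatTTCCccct
The Nr2f2 window held 2 GGAA and 4 TTCC, 6 on either strand, and 8.69% of the 32851 mouse windows of this length held as many or more. The Meox2 window held 3 GGAA and 1 TTCC, 4 in all, which 33.4% of windows matched or passed. At least 1 GGAA on either strand was in 93.4% of windows, so its presence sets neither window apart. The motif CANNTG, the E-box bound by TAL1 and TCF15, was found 1 time in each window and in 66.2% of all windows. The Nr2f2 window also overlaps an exon of the long noncoding RNA B130024G19Rik on the other strand. These matches describe letters, not binding.

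In GENCODE positions (build GRCm38), 4 of the 5 ETS genes lie in neighbouring pairs. Fli1 (chr9:32422204-32542861, minus strand) and Ets1 (chr9:32636221-32757820, plus strand) are 93.4 kb apart, with 0 protein-coding genes between them. Erg (chr16:95359169-95586593, minus strand) and Ets2 (chr16:95702075-95721051, plus strand) are 115 kb apart, again with 0 between them. Elk3 lies at chr10:93247414-93311135 on the minus strand, Gata2 at chr6:88193891-88207032 on the plus strand and Tal1 at chr4:115056426-115071755 on the plus strand. Meox2 lies at chr12:37108540-37179534 on the plus strand, Tcf15 at chr2:152143561-152149097 on the plus strand and Nr2f2 at chr7:70351944-70366735 on the minus strand. All 10 are annotated as protein-coding.

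The untreated, sedentary and running libraries held 8002866, 5625068 and 5983685 UMIs (unique molecular identifiers, 1 per captured transcript molecule), and 4325, 4015 and 3212 cells were kept. Cells were grouped into 14 clusters without using the 10 genes, and clusters were named from markers. Capillary-like cells numbered 2453, 3100 and 2413 in the untreated, sedentary and running libraries, artery-like cells 1237, 684 and 484, and vein-like cells 504, 157 and 187. A lymphatic-like cluster had 27, 10 and 43 cells, and a cluster led by Penk, with 141 cells in all, was left unnamed. All 15 endothelial markers, Pecam1 and Cdh5 among them, were detected in capillary-like, artery-like, vein-like and lymphatic-like cells of each library. Clusters of 96 cells with mural markers and 16 erythrocyte-like cells were the non-endothelial part of the sort. Pairs of libraries shared 20 to 32 cell barcodes.

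The libraries differed in which clusters filled a class. Cluster 0, led by immediate-early and stress genes such as Jun and Egr1, held 52.2% of the untreated capillary-like cells and 31.5% of the running ones. Cluster 5, with a low median of 689.5 UMIs per cell, held 37.3% of the sedentary capillary-like cells. Among artery-like cells, cluster 2 held 70.5% of the untreated cells, and cluster 7 held 69.0% of the sedentary and 56.2% of the running cells. The median UMI count of capillary-like cells was 1416, 978.5 and 1348 in the untreated, sedentary and running libraries. Levels below are CPM, the UMIs of a gene scaled to all UMIs of that class in that library. A mean ± SD over the 3 libraries describes their spread only, since each library is a group of its own.

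Nr2f2 separated the vessel classes further than any other of the 10 genes. In vein-like cells it stood at 468, 296 and 281 CPM in the untreated, sedentary and running libraries. In capillary-like cells it stood at 80.4, 49.3 and 41.4 CPM in the same order, and in artery-like cells at 6.23, 11.2 and 7.44 CPM, from only 15, 13 and 8 UMIs. The 3 ranges did not overlap in any pair of classes. Within a library, vein-like cells were above capillary-like cells by 2.63 ± 0.12 on the log2 scale (mean ± SD over n = 3 libraries), and artery-like cells were below capillary-like cells, with a log2 ratio of -2.71 ± 0.82. The artery to vein ratio was -5.34 ± 0.77. The artery-like levels lie below the 14.7 CPM that 1 UMI gave in 16 erythrocyte-like cells, a background for free RNA. These counts therefore do not set the size of either ratio to artery-like cells. The background itself rests on that 1 UMI, with 0 erythrocyte-like cells from the untreated library. Its part in the capillary-like levels was not tested. With every cell thinned to 1000 UMIs, Nr2f2 was detected in 23.6% to 33.8% of vein-like cells, 4.41% to 6.67% of capillary-like cells and 0.655% to 1.23% of artery-like cells. Before thinning, the median depths were 2650 to 3359 UMIs in vein-like and 1515 to 1987 in artery-like cells.

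Lymphatic-like cells had Nr2f2 levels of 554, 821 and 292 CPM in the untreated, sedentary and running libraries, from 44, 17 and 38 UMIs. Their range reached that of vein-like cells, so the order of these classes is not settled by these counts. The mural-marked cells held Nr2f2 as well, at 346 CPM from 104 UMIs over the libraries.

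**Figure D1:**
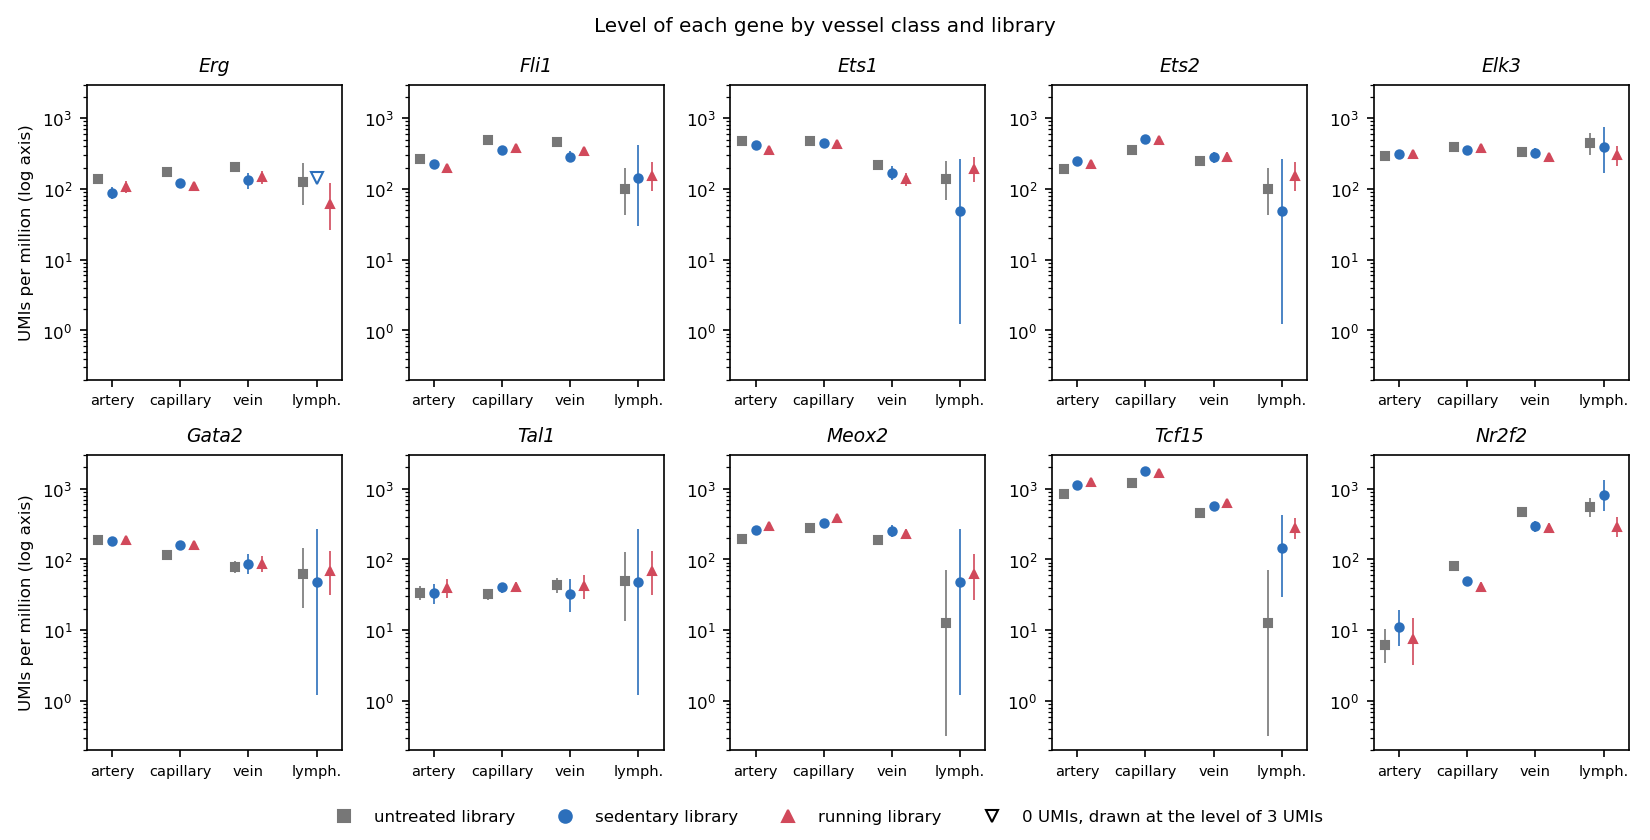
Level of each of the 10 genes (vertical log axis, CPM) in artery-like, capillary-like, vein-like and lymphatic-like cells of the 3 libraries, with exact 95% Poisson intervals that cover counting error only and an open symbol where no UMI was counted. Nr2f2 runs from 6.23 CPM in untreated artery-like cells to 468 CPM in untreated vein-like cells and 821 CPM in sedentary lymphatic-like cells. Tal1 lies between 32.2 and 43.3 CPM in the artery-like, capillary-like and vein-like cells.

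Ets1, an ETS gene with roles in angiogenesis, had the reverse order of Nr2f2 between veins and the other vessels. It stood at 477, 420 and 361 CPM in artery-like cells of the untreated, sedentary and running libraries, and at 476, 454 and 433 CPM in capillary-like cells. In vein-like cells it stood at 215, 169 and 139 CPM, below every artery-like and capillary-like value. The vein to capillary log2 ratio was -1.40 ± 0.25 and the artery to vein ratio 1.28 ± 0.12. Artery-like and capillary-like cells overlapped in Ets1 (log2 ratio -0.12 ± 0.13).

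Its chromosome neighbour Fli1 did not follow the same order. Fli1 was lowest in artery-like cells, at 267, 225 and 196 CPM in the untreated, sedentary and running libraries, against 492, 353 and 374 CPM in capillary-like cells and 463, 288 and 347 CPM in vein-like cells. Artery-like cells did not overlap with either other class, and the artery to capillary log2 ratio was -0.82 ± 0.15. Capillary-like and vein-like cells overlapped in Fli1, with a log2 ratio of -0.16 ± 0.11.

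Erg overlapped in all 3 pairs of classes. It stood at 175, 121 and 110 CPM in capillary-like cells, at 138, 87.5 and 108 CPM in artery-like cells and at 203, 132 and 146 CPM in vein-like cells. Within each library, however, vein-like cells were the highest and artery-like cells the lowest of the 3 classes, although in the running library the artery to capillary log2 ratio was only -0.02. The artery to vein log2 ratio was -0.53 ± 0.08, an order that the spread between libraries hides when ranges are compared.

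Ets2, a factor activated by MAP kinase signalling, was highest in capillary-like cells, at 358, 511 and 490 CPM in the untreated, sedentary and running libraries. Vein-like cells had 253, 281 and 285 CPM and artery-like cells 192, 251 and 226 CPM, and none of the 3 pairs of classes overlapped. The artery to capillary log2 ratio was -1.01 ± 0.11. Elk3, an ETS factor that represses transcription until it is phosphorylated, differed least among the ETS genes. It stood at 387, 357 and 381 CPM in capillary-like cells, at 297, 317 and 311 CPM in artery-like cells and at 332, 326 and 281 CPM in vein-like cells. Capillary-like cells lay above both other classes, with log2 ratios of -0.28 ± 0.11 for artery-like and -0.26 ± 0.16 for vein-like cells against them.

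Gata2 ran from arteries down to veins. Artery-like cells had 190, 180 and 187 CPM, capillary-like cells 118, 160 and 160 CPM and vein-like cells 78.8, 86.5 and 87.5 CPM in the untreated, sedentary and running libraries. No pair of classes overlapped, and the artery to vein log2 ratio was 1.13 ± 0.12. The artery to capillary ratio was 0.69 in the untreated library but 0.17 and 0.23 in the sedentary and running libraries.

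Tal1, a basic helix-loop-helix gene that works with GATA factors, was not separated between classes. It stood at 32.2, 40.2 and 40.8 CPM in capillary-like, at 34.1, 33.5 and 39.0 CPM in artery-like and at 43.3, 32.4 and 42.2 CPM in vein-like cells. The mural-marked cells gave 26.6 CPM from 8 UMIs (95% interval 11.5 to 52.4 CPM), which spans these levels. At this depth Tal1 was therefore not told apart from what those cells gave.

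Tcf15 and Meox2 were both highest in capillary-like cells. Tcf15 stood at 1216, 1764 and 1667 CPM there in the untreated, sedentary and running libraries, at 856, 1128 and 1231 CPM in artery-like cells and at 461, 579 and 634 CPM in vein-like cells. Vein-like cells did not overlap with either other class, with a vein to capillary log2 ratio of -1.47 ± 0.12. Artery-like and capillary-like ranges overlapped by the running artery-like value, although capillary-like cells were higher within each library (log2 ratio -0.53 ± 0.11). In lymphatic-like cells it was 12.6, 145 and 277 CPM, from 1, 3 and 36 UMIs. The erythrocyte-like cells, which should lack Tcf15, gave 338 CPM from 23 UMIs, but they came from the sedentary and running libraries, with 0 from the untreated one. The part of free RNA in the lymphatic-like and vein-like values, and so in the vein to capillary ratio, was not tested.

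Meox2 stood at 275, 325 and 382 CPM in capillary-like, at 197, 263 and 298 CPM in artery-like and at 191, 255 and 232 CPM in vein-like cells. Vein-like and capillary-like cells did not overlap (log2 ratio -0.53 ± 0.19), while artery-like and capillary-like cells did (-0.38 ± 0.09). Lymphatic-like cells had 1, 1 and 8 Meox2 UMIs, and the erythrocyte-like cells 2.

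Counted over the 10 genes, the artery-like and capillary-like ranges did not overlap for 5. Gata2 was the 1 higher in artery-like cells, and Fli1, Ets2, Elk3 and Nr2f2 were lower. Over all 9587 genes with at least 100 UMIs in these sums, 23.8% did not overlap, 9.77% higher and 14.0% lower in artery-like cells. Between vein-like and capillary-like cells 7 of the 10 did not overlap, against 32.1% of 9301 genes. Nr2f2 was higher in vein-like cells, as were 8.99% of genes, and Ets1, Ets2, Elk3, Gata2, Meox2 and Tcf15 were lower, as were 23.1% of genes. Between artery-like and vein-like cells 6 of the 10 did not overlap, against 33.6% of 7435 genes. Ets1, Gata2 and Tcf15 were higher in artery-like cells, the direction of 22.6% of genes, and Fli1, Ets2 and Nr2f2 were lower, the direction of 11.1%. The classes come from clusters of the same cells, so these counts are descriptions and carry no test. The shares over all genes, here and below, take genes from 100 UMIs up and were not matched for depth. In the vein-like and capillary-like sums the 10 genes had 530 to 18820 UMIs. Without the untreated library, all 10 genes were free of overlap between artery-like and capillary-like cells, Gata2 higher and the other 9 lower in artery-like cells. For Erg and Tal1 the margin was smaller than the counting error. Running artery-like Erg was 108 CPM (89.1 to 129), against 110 CPM in running capillary-like cells. Running artery-like Tal1 was 39.0 CPM (28.1 to 52.8), against 40.2 CPM in sedentary capillary-like cells. With only the 2 other libraries to overlap, the share over 8454 genes rose too, to 53% (21.4% higher, 31.5% lower).

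Levels also varied among clusters of 1 class, here pooled over the libraries. Ets2 reached 779 CPM in the low-UMI capillary-like cluster 5 and lay between 371 and 440 CPM in the other 5 capillary-like clusters. Within cluster 5 it was 530, 824 and 764 CPM in the untreated, sedentary and running libraries, above each of the other large capillary-like clusters (0, 3, 4 and 6) in the same library. The depth of cluster 5 moves with this level, and its part in the result was not tested. Ets1 was 605 CPM in cluster 3, also led by immediate-early genes, and 318 CPM in cluster 6. Nr2f2 was 79.0 and 84.5 CPM in clusters 0 and 6 and between 25.5 and 30.5 CPM in the other 4.

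Cluster 6 of the untreated library had the highest Nr2f2 level of those capillary-like groups, at 216 CPM from 68 UMIs. The same cluster had 58.4 CPM in the sedentary and 57.6 CPM in the running library. In clusters 0 and 4 the untreated library had 87.0 and 30.9 CPM, the sedentary library 73.8 and 25.5 CPM and the running library 68.9 and 16.8 CPM, so the gap between libraries was not even across clusters.

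The smallest artery-like cluster, 63 cells led by Mgp and with the elastic fibre gene Eln among its top genes, differed from the other 2 in several genes. It held 275 CPM of Gata2 from 34 UMIs, and 0 Nr2f2 UMIs, with an upper 95% limit of 29.9 CPM. Low Nr2f2 was not particular to it, since artery-like cells as a whole had 6.23 to 11.2 CPM. Gata2 was 240 and 201 CPM in cluster 2 of the sedentary and running libraries, and 124 and 163 CPM in cluster 7. In the small cluster, Ets2 was 40.5 CPM from 5 UMIs, Fli1 72.9 CPM from 9 and Meox2 48.6 CPM from 6. The other 2 artery-like clusters had 216 and 225 CPM of Ets2, 265 and 207 CPM of Fli1 and 230 and 264 CPM of Meox2, above the upper 95% limits of the small cluster (94.5, 138 and 106 CPM). Tcf15 was 332 CPM in the small cluster and 1080 and 935 CPM in the other 2. The erythrocyte-like cells gave a Tcf15 level close to that of the small cluster, and the part of free RNA in it was not tested. Most of these cells, 48 of 63, came from the untreated library.

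The cluster led by Penk, with the vein marker Plvap among its top genes, also stood apart. Its Meox2 level was 79.1 CPM from 29 UMIs, against 213 to 401 CPM in the capillary-like and vein-like clusters. Fli1 was 177 CPM there, against 336 to 457 CPM. By library, in the order untreated, sedentary, running, it was 160, 263 and 126 CPM. The sedentary value, from 27 UMIs, was close to the 266 CPM of capillary-like cluster 4 in that library. Ets1, at 325 CPM, lay above the vein-like 187 CPM and below 5 of the 6 capillary-like clusters.

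**Figure D2:**
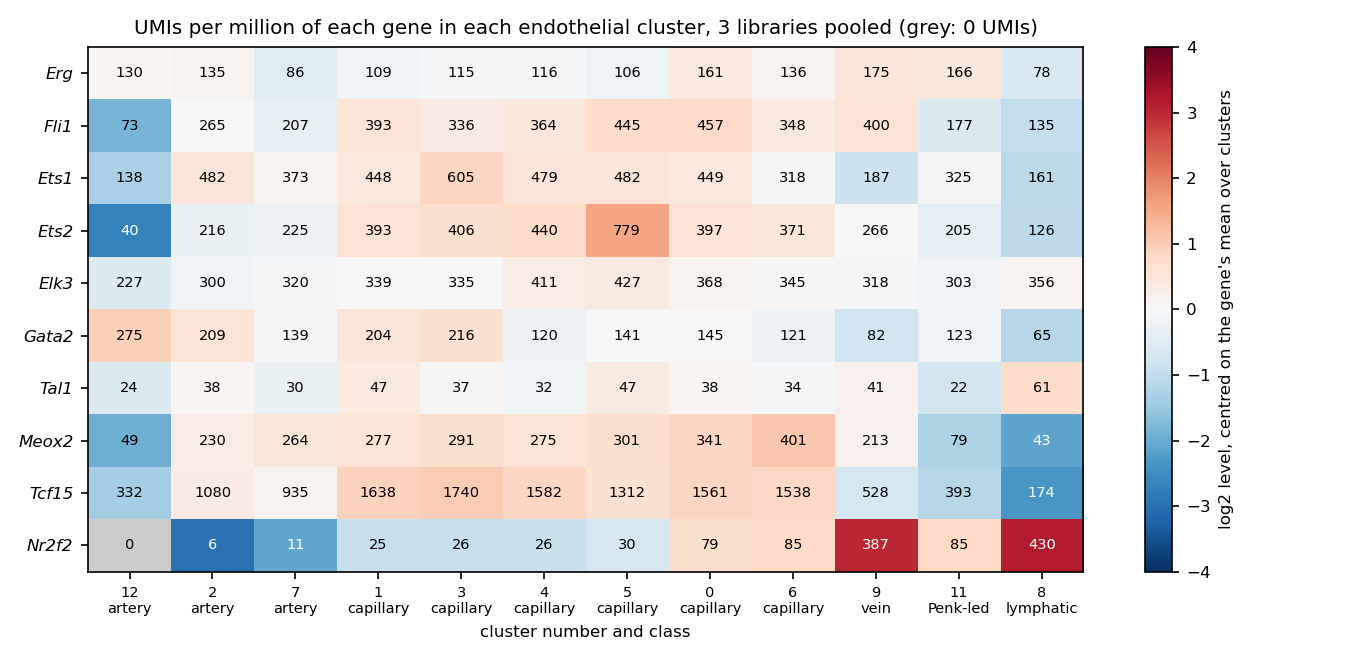
Pooled level of each gene in 12 endothelial clusters (numbers in the cells, CPM, rounded to whole numbers), coloured by log2 level centred on each gene's mean over the clusters, with grey where no UMI was counted. The dark red (high) cells of the lowest row are the 387 and 430 CPM of Nr2f2 in the vein-like and lymphatic-like clusters. The dark blue (low) cell of the Ets2 row is the 40.5 CPM of cluster 12.

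The main comparison of the design was running against sedentary. In capillary-like cells, 0 of the 10 genes differed by 0.32 or more on the log2 scale, the fold used here to count a gene, while 20.3% of 7753 genes with at least 100 UMIs did so, 8.84% higher and 11.4% lower in the running library. That share was not matched to the depth of the 10 genes. With 1 library per group there is no test and no replicate check. Ratios carry exact 95% intervals for 2 Poisson counts, which cover counting error only. The median log2 ratio of the 10 genes was -0.03, against -0.01 over all genes tested.

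Meox2 had the highest ratio in capillary-like cells. It had 1442 UMIs in the running and 1219 in the sedentary library, 382 and 325 CPM, a log2 ratio of 0.24 (0.12 to 0.35). By cluster the ratio was 0.40 (0.19 to 0.61) in cluster 0, 0.36 (0.05 to 0.68) in cluster 3, 0.36 (0.03 to 0.69) in cluster 4, 0.03 (-0.25 to 0.31) in cluster 5 and 0.09 (-0.15 to 0.32) in cluster 6. Clusters 0, 3 and 4 were thus each past the counting fold on their own, and clusters 5 and 6 were not. Ratios were not computed for capillary-like cluster 1, with only 55 sedentary and 63 running cells. Within artery-like cells the ratio was 0.18 (-0.05 to 0.41) and within vein-like cells -0.14 (-0.49 to 0.22), both spanning 0. Of the 2 large artery-like clusters, cluster 2 was past that fold, at 0.36 (0.02 to 0.71), and cluster 7 was not, at 0.09 (-0.24 to 0.41).

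Its partner Tcf15 did not share that direction in capillary-like cells. It had 6289 UMIs in the running and 6622 in the sedentary library, a log2 ratio of -0.08 (-0.13 to -0.03). In clusters 0 and 4 the ratio was -0.28 (-0.37 to -0.19) and -0.30 (-0.43 to -0.16), and in clusters 5 and 6 it was 0.01 and 0.07, with intervals that span 0. In artery-like cells the sign was the other way, at 0.13 (0.02 to 0.24).

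Among the ETS genes, Erg had a capillary-like ratio of -0.14 (-0.34 to 0.05), Fli1 0.09 (-0.02 to 0.19), Ets1 -0.07 (-0.17 to 0.03), Ets2 -0.06 (-0.15 to 0.03) and Elk3 0.10 (-0.01 to 0.21). Each of these 5 intervals spans 0, and those of Fli1, Ets1, Ets2 and Elk3 stay inside that fold in both directions. By cluster, Elk3 was past the fold in cluster 6, at 0.37 (0.12 to 0.62), and Ets2 was 0.26 (0.03 to 0.50) there. In clusters 0, 3, 4 and 5 the intervals of both genes span 0. Over all capillary-like cells, Gata2 had 602 UMIs in each library and a ratio of -0.01 (-0.17 to 0.16). Tal1, with 154 and 151 UMIs, had a ratio of 0.02 (-0.31 to 0.36). Nr2f2 had 156 UMIs in the running and 185 in the sedentary library, with a ratio of -0.25 (-0.57 to 0.06), so a change of the counting fold downward could not be told from none at this depth. By cluster, Nr2f2 was lower in the running library in cluster 5, with 9 against 36 UMIs and a ratio of -1.40 (-2.70 to -0.38), while clusters 0 and 6 had -0.10 (-0.58 to 0.39) and -0.01 (-0.68 to 0.62). With each library clustered alone, the Nr2f2 ratio became 0.44, the opposite direction.

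In artery-like cells, 8 of the 10 genes had at least 100 UMIs over both libraries, all but Tal1 and Nr2f2, and 0 of the 8 passed the fold, against 19.8% of 3704 genes (9.75% higher, 10.0% lower). Erg came nearest, with 116 UMIs in the running and 102 in the sedentary library and a ratio of 0.30 (-0.10 to 0.70). Ets1 was lower in the running library by less than that fold, at -0.22 (-0.41 to -0.02). Its ratio was past the fold in artery-like cluster 7, at -0.52 (-0.83 to -0.22), and near 0 in cluster 2, at -0.04 (-0.31 to 0.22). In vein-like cells 8 genes were counted, all but Gata2 and Tal1, and 0 passed, against 24.8% of 1780 genes (12.0% higher, 12.8% lower). The vein-like ratios ran from -0.28 for Ets1 to 0.27 for Fli1, and all 8 intervals span 0.

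**Figure D3:**
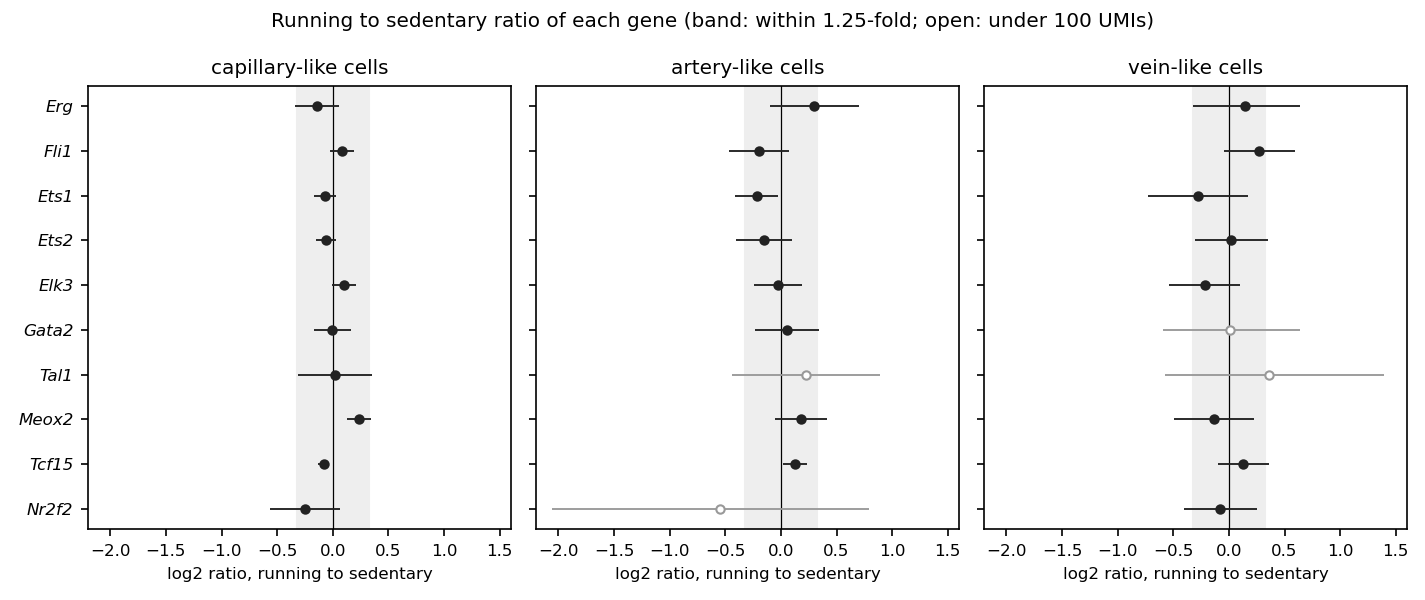
Log2 ratio of the running to the sedentary library for each gene in capillary-like, artery-like and vein-like cells, with exact 95% intervals for counting error; the shaded band marks less than 0.32 in either direction and open symbols mark genes under 100 UMIs. Every filled symbol lies inside the band, and in capillary-like cells the interval lies above 0 for Meox2 and below 0 for Tcf15.

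Other genes of these families were read the same way in capillary-like cells, where 8.84% of 7753 genes were higher and 11.4% lower. Of 20 other ETS family genes, 8 had at least 100 UMIs, 0 were higher and 1 was lower in the running library. The lower gene was Elf4, with 74 UMIs against 97 and a log2 ratio of -0.39 (-0.85 to 0.05), while Elf1 had the highest ratio, 0.24 (0.06 to 0.43). Of 19 partners and relatives of the other factors, 11 were counted, 0 were higher and 1 was lower. That gene was Gata3, a relative of Gata2, with 60 UMIs in the running and 105 in the sedentary library and a ratio of -0.81 (-1.30 to -0.34). Lmo2 and Lyl1, which join TAL1 complexes or resemble TAL1, had ratios of 0.20 (-0.06 to 0.46) and 0.12 (-0.14 to 0.38).

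A list of 18 other endothelial transcription factor genes had 14 members counted, with 3 higher and 2 lower. Over all 7753 genes, 8.84% were higher and 11.4% lower, the shares to set beside this list and the next. Mef2c, a MADS-box factor, was the highest at 435 CPM in the running and 330 CPM in the sedentary library, a ratio of 0.40 (0.29 to 0.51). Hhex and Bcl6b followed with 0.37 (0.18 to 0.57) and 0.33 (0.18 to 0.48). The lower genes were Hoxd8 at -0.54 (-0.92 to -0.17) and Tbx3 at -0.35 (-0.66 to -0.04). Among 20 pan-endothelial surface and junction genes, some of them, such as Cldn5, known targets of ERG, 0 were higher and 4 lower. Tek, the angiopoietin receptor TIE2, had the lowest ratio of the list at -0.54 (-0.69 to -0.39), from 635 and 917 UMIs. Podxl and Mmrn2 followed at -0.41 (-0.50 to -0.32) and -0.39 (-0.50 to -0.29), and Cldn5 was the highest at 0.28 (0.23 to 0.34). The median ratios of the 4 lists were -0.04, 0.06, 0.04 and -0.15, against -0.01 over all genes.

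Both other libraries were also set against the untreated one. These comparisons share that library and are not independent of each other. No date or batch is given for it, so batch and group cannot be told apart. Among capillary-like cells, 8 of the 10 genes were past the fold in the running library, against 43.6% of 7631 genes. Ets2, Gata2, Tal1, Meox2 and Tcf15 were the 5 higher, the direction of 27.2% of genes, and Erg, Fli1 and Nr2f2 the 3 lower, the direction of 16.4%. The sedentary library had 6 past the fold, against 43.8% of 7606 genes. Ets2, Gata2 and Tcf15 were the 3 higher, as were 28.4% of genes, and Erg, Fli1 and Nr2f2 the 3 lower, as were 15.4%. The median of all genes was 0.09 in the running and 0.10 in the sedentary comparison, and that of the 10 genes was 0.16 and 0.09.

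Not all of these calls held when the cells were handled another way. Tal1 was past the fold in the running comparison at 0.34, with an interval from -0.01 to 0.70, and fell under it with cells thinned to 1000 UMIs (0.22), with TMM scaling, which sets library sizes by the bulk of genes (0.23), and without the low-UMI cluster 5 (0.27). Gata2 fell under it at Leiden resolution 2.0 (0.13 for running, 0.27 for sedentary), and for sedentary also with each library clustered alone (0.20). Ets2 fell under it for sedentary with thinned cells (0.23), and without cluster 5 for both running (just under, at 0.32) and sedentary (0.25). Erg, Fli1 and Tcf15 kept both capillary-like calls in every alternative except a limit of 1.5-fold, where Erg kept only the running one. Nr2f2 kept both in every alternative, that limit included.

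Nr2f2 was the furthest from the untreated library, with capillary-like log2 ratios of -0.96 (-1.2 to -0.67) for running and -0.70 (-0.98 to -0.44) for sedentary. In vein-like cells it was lower as well, at -0.73 (-0.98 to -0.50) and -0.65 (-0.93 to -0.39). Erg had capillary-like ratios of -0.67 (-0.85 to -0.49) and -0.52 (-0.70 to -0.35), and its 6 ratios to the untreated library, over 3 classes, were all below 0, from -0.67 to -0.35. Fli1 was below 0 in all 6 as well, from -0.68 to -0.25, and so was Ets1, from -0.63 to -0.07.

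Tcf15, Meox2 and Ets2 lay on the other side. The 6 ratios of Tcf15 ran from 0.33 to 0.54, those of Meox2 from 0.24 to 0.60 and those of Ets2 from 0.16 to 0.52. The running ratios of Ets2 in artery-like and vein-like cells, at 0.24 and 0.18, went down to -0.04 and -0.02 under other settings. Gata2 was higher than untreated in capillary-like cells, at 0.44 (0.26 to 0.62) for running and 0.45 (0.27 to 0.63) for sedentary. Its artery-like ratios were -0.02 (-0.27 to 0.22) and -0.08 (-0.32 to 0.16). Elk3 stayed under the fold in all 6, from -0.24 to 0.09.

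In artery-like cells, 5 of 9 genes counted passed the fold in the running comparison, against 43.1% of 5023 genes. Meox2 and Tcf15 were the 2 higher, the direction of 22.2% of genes, and Erg, Fli1 and Ets1 the 3 lower, the direction of 20.9%. In the sedentary comparison 4 of 9 passed, against 43.8% of 5117 genes, with Ets2, Meox2 and Tcf15 higher, as were 22.9% of genes, and Erg lower, as were 21.0%. In vein-like cells, 5 of 9 passed for running, against 47.9% of 3226 genes (24.1% higher, 23.8% lower). For sedentary 6 of 9 passed, against 50.6% of 2936 genes (25.5% higher, 25.1% lower). Erg, Fli1, Ets1 and Nr2f2 were the lower genes in both vein-like comparisons, Tcf15 was higher in both and Meox2 in the sedentary one. With the highest 5% of doublet scores left out, the running count in artery-like cells fell from 5 to 3, with Fli1 (-0.27) and Ets1 (-0.14) under the fold. The sedentary artery-like ratio of Ets2 fell to 0.08 under the same setting, and the sedentary vein-like ratios of Ets1 and Tcf15 to -0.13 with thinned cells and 0.12 with each library clustered alone. Over all settings, the running artery-like ratio of Fli1 went as near to 0 as -0.04. Tcf15 also went just under the fold in sedentary artery-like cells (0.31) and running vein-like cells (0.30). The sedentary vein-like ratio of Meox2 went down to 0.20.

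**Figure D4:**
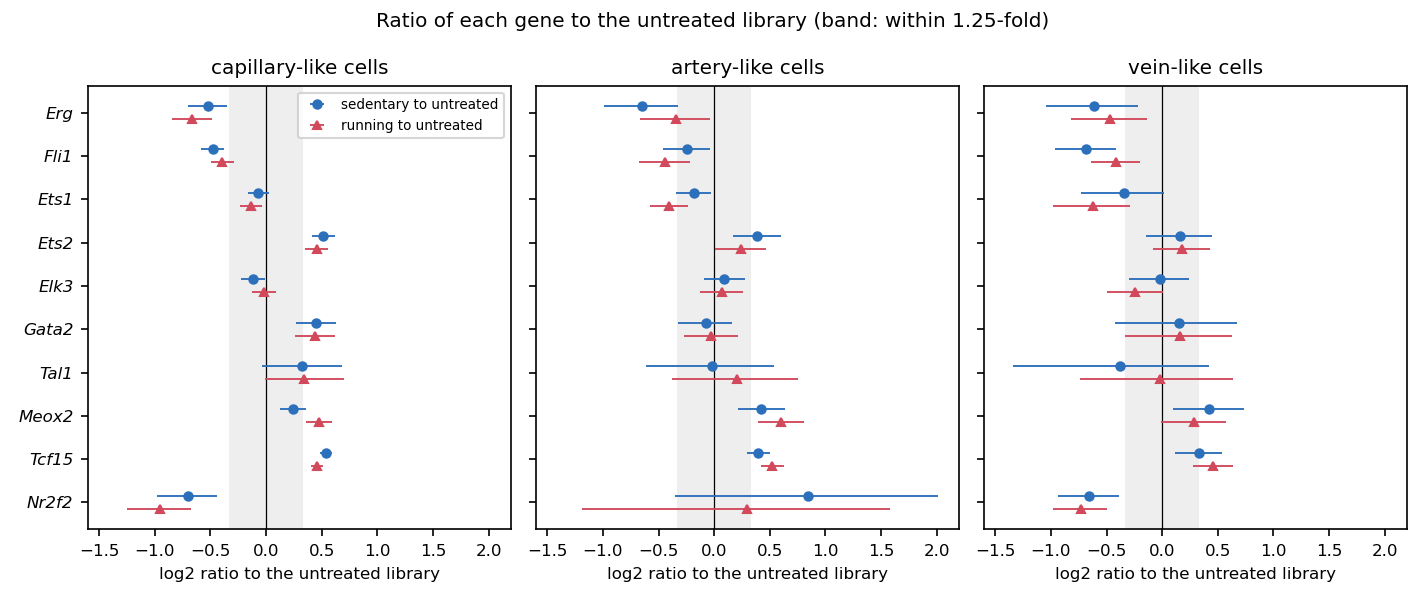
Log2 ratio of the sedentary and the running library to the untreated library for each gene in capillary-like, artery-like and vein-like cells, with exact 95% intervals for counting error and a shaded band for less than 0.32 in either direction. Erg, Fli1 and Ets1 lie left of 0 and Ets2, Meox2 and Tcf15 right of 0 in all 6 ratios.

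Other measures differed between the libraries in the same capillary-like cells. The summed level of 25 immediate-early genes was 21408, 15623 and 21937 CPM in the untreated, sedentary and running libraries, with all 25 detected in each. The 5 erythrocyte genes summed to 276, 1188 and 872 CPM, with 4, 5 and 5 detected. The 12 mural markers summed to 191, 179 and 226 CPM, with 11, 10 and 12 detected, and the 8 lymphatic markers to 51.1, 75.6 and 166 CPM, with 8, 8 and 7 detected. Prox1, which defines lymphatic cells, had 3 UMIs in each library, and the leukocyte list summed to 19.9 CPM in the running library from 8 of its 9 genes, with 3 of 9 detected in each of the others. The part of these measures in the ratios was not tested.

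Across the 9 sums of 3 classes in 3 libraries, the levels of some of the genes ran together. Pearson's r of log2(CPM + 1) was 0.83 for Meox2 with Tcf15, 0.83 for Ets1 with Gata2 and 0.77 for Erg with Fli1, and -0.97 for Gata2 with Nr2f2. The 9 sums share 3 libraries and 3 classes, so they are not independent points, and these values are descriptions only. Out of 8978 genes searched, the most alike to Tcf15 were Cd300lg (r = 0.99), a capillary marker used to name the classes, Nrp1 (0.98), a VEGF co-receptor, and Bcl6b (0.98), a zinc finger repressor. Those most alike to Nr2f2 were Pgm5, Lhx6 and Gpr182, each at 0.99. Erg was most alike to Cbfa2t3 (0.99), a transcriptional corepressor, and Fli1 to Nid1 (0.99), a basement membrane protein. The gene most alike was Tmem123 for Ets2 (0.97), Wasl for Elk3 (0.97), Tmem230 for Gata2 (0.99), Rfwd2 for Tal1 (0.96) and Chkb for Meox2 (0.98).

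Within single capillary-like cells thinned to 1000 UMIs, detection of 1 gene told little about another. Of 90 ordered pairs of genes in each library, the exact 95% intervals of detection with and without the partner were apart for 3, 0 and 1 in the untreated, sedentary and running libraries. Those of the untreated library were Nr2f2 and Tcf15, in both orders, and Fli1 given Nr2f2. Fli1 was detected there in 48.0% of 125 cells with Nr2f2 and in 36.1% of 1750 without it. In the sedentary library the Fli1 shares were 37.1% of 70 cells and 27.2% of 1451 cells, with overlapping intervals. The 1 running pair had less detection with the partner than without. In the untreated library, Tcf15 was detected in 52.0% of 125 cells with Nr2f2 and in 68.4% of 1750 cells without it. In the sedentary library the shares were 80.0% of 70 cells and 79.0% of 1451 cells, and in the running library 76.4% of 72 cells and 77.0% of 1562 cells. Meox2 and Tcf15 showed no such gap in any library. Tcf15 was detected in 67.1% of Meox2-positive and 67.4% of Meox2-negative untreated cells, in 76.3% and 80.1% of sedentary cells and in 79.3% and 75.9% of running cells.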

How the data were processed

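The deposited matrices held raw UMI counts, 1 row per gene and 1 column per barcode. Libraries used version 2 of the 10x Chromium 3' chemistry, per the labels' protocols. The authors counted with Cell Ranger 2.0.2 on GRCm38.p5, per the submitters' processing notes. The annotation release is not given in the sources used here, nor is the calling of cells. The genes and lists described were chosen with earlier results of these data known.

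Barcodes with at least 300 genes and at most 10% mitochondrial UMIs were kept. Scrublet, run per library at an expected rate of 0.05, marked 2 of 11554 (0.0173%) and so did not work as a doublet filter. The marked barcodes were left out, which left 11552 cells. The libraries were clustered together in scanpy 1.11.5 without integration, on 10000-scaled log counts, 2000 variable genes without the 10 described, 30 principal components, 15 neighbours and Leiden resolution 1.0. Names came from the mean centred log2 level of 16 marker lists and needed at least 3 detected markers. Score limits of 0.4 for a vessel class, -0.5 for endothelial genes (not applied to the lymphatic-like cluster) and 1.0 for other types were set after the data were seen.

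UMIs were summed per class and library and scaled to CPM of all UMIs of the class, which held 3758396, 3754879 and 3772144 UMIs in capillary-like cells of the untreated, sedentary and running libraries, and from 462519 to 2406512 UMIs in artery-like and vein-like cells. Log2 ratios used a prior count of 0.5. A gene counted as past the fold at 0.32 or more on the log2 scale with at least 100 UMIs over both libraries. Ratio intervals are exact for 2 Poisson counts and share intervals are Clopper-Pearson, both at 95%. The interval steps were tested on simulated counts. TMM factors came from edgeR 4.0.16. All 10 genes are reported. From each of 4 lists of related genes, at most the 3 highest and the 3 lowest running to sedentary ratios in capillary-like cells were eligible to be named. The genes most alike to each member were ranked by Pearson's r among genes with at least 100 UMIs, leaving out mitochondrial, ribosomal protein and number-only genes. The gene most alike to Ets1 is not reported here. Alternatives changed the clustering, the filters, the depth, the scaling and the thresholds.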

Additional observations from a re-analysis of the deposited data

How the results depend on the processing

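Of 1390 log2 ratios recomputed under the alternatives, 1278 moved by less than their spread or interval and 112 by more, and the 52 ratios past the fold or free of overlap kept their sign in each alternative that recomputed them. The count of genes past the fold between running and sedentary rose from 0 to 1 in capillary-like cells with each library clustered alone (Nr2f2, higher). In artery-like cells it rose to 1 with each library clustered alone (Tal1, higher), with cells thinned to 1000 UMIs (Fli1, lower) and with no minimum of UMIs (Nr2f2, lower). In vein-like cells it rose to 1 at Leiden resolution 0.5 and with each library clustered alone (Gata2, lower, in both) and with no minimum of UMIs (Tal1, higher). The cause was not tested. At 1.5-fold, the counts against the untreated library in capillary-like cells fell from 8 to 2 for running (Erg and Nr2f2) and from 6 to 1 for sedentary (Nr2f2), by the construction of a stricter limit. At that limit those in artery-like cells fell from 5 to 1 for running (Meox2) and from 4 to 1 for sedentary (Erg). Those in vein-like cells fell from 5 to 2 for running (Ets1 and Nr2f2) and from 6 to 3 for sedentary (Erg, Fli1 and Nr2f2). The share of all genes past 1.5-fold was not counted, so these counts cannot be read against it. With the highest 5% of doublet scores left out, the artery-like running count fell to 3, and the cause was not tested. The alternatives for artery-like and vein-like cells against the untreated library were chosen after seeing the data. Leaving out each library in turn, the genes free of overlap numbered 5 to 10 between artery-like and capillary-like cells, 7 to 9 between vein-like and capillary-like cells and 7 to 8 between artery-like and vein-like cells, with fewer values to overlap. The same shares over all genes were 38.4% to 53%, 47.6% to 60.3% and 49.6% to 62%. Leaving out the low-UMI cluster 5 and counting the cluster led by Penk as vein-like, both chosen after seeing the data, moved no count by more than 1.5 times.

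No paired analysis was possible because each group had 1 library. Depth limits the lymphatic-like cells and Nr2f2 in artery-like cells most, where a few UMIs set each level, and Tal1 after them. Levels of 10 genes at 1 library per group cannot separate the treatment from the library.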
